A study of Homo sapiens with 4 samples.

Results

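The solute carriers are membrane proteins that move small molecules across the plasma membrane and the membranes of organelles, and their gene symbols start with SLC. Rows of the deposited table were taken where a gene symbol fitted the SLC naming pattern and the mean over the 4 libraries was at least 2 RPM, reads scaled to the library total. This gave 142 of 16328 rows, and after rows with identical values were merged 139 rows of 134 gene symbols. Of 253 rows with such a symbol at any level, the others lay under that mean or were merged. The mean level chose the rows, so their levels are a description only. Of the 139, 131 were rows of carriers, and 8 were rows of antisense or opposite-strand genes or of proteins named after a carrier.

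RNA came from Jurkat cells, an established human T lymphocyte leukemia line kept in RPMI-1640 with fetal bovine serum. The 1 Control library, a control shRNA by the design text, was set against 3 libraries labelled SLEAR shRNA and numbered -1 to -3. Their cells were transduced with the lentiviral vector pGreenPuro carrying short hairpins against the transcript SLEAR. The labels leave unsaid whether the numbers are different hairpins or repeats, whether cultures were separate, and what the control hairpin targets. A p-value here therefore reflects no more than the scatter among these libraries, which may be technical. MAPS, the method used, sequences the polyadenylated 3′ ends of transcripts. RPM of such reads is not divided by transcript length, and the order of levels below is an order of 3′ end reads. In RNA of whole cultures, fewer cells of a kind and less RNA per cell cannot be told apart. The Control had no replicate and carries no SD. In this text, 3 values in a row for SLEAR shRNA are always in the order -1, -2, -3.

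Carriers work by changing shape around their substrate, and many are driven by the sodium or proton gradient that ATPases keep up. T cells are known to raise amino acid, glucose and iron uptake when they grow, and the pair of SLC7A5 and SLC3A2, which brings in leucine and other large neutral amino acids, is among the best studied carriers of activated and leukemic T cells. Most of the SLC25 family sits in the inner mitochondrial membrane and passes nucleotides, phosphate, amino acids and carboxylates between the cytosol and the matrix.

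Estimated depths lay between 4814167 and 8384887 reads, so that the 2 RPM of the lowest members stood for about 16.8 reads in Control and 9.63 reads in SLEAR shRNA-3. Values of 0 allow by counting alone up to 3 reads, or 0.358 RPM in Control and 0.623 RPM in SLEAR shRNA-3. SLEAR shRNA-3 stood apart. Its value lay outside the range of the other 3 libraries in 114 of the 139 rows, 52 above and 62 below, which is 82.0% against 79.7% of all rows with a mean of at least 2 RPM. It was at 0 in 17 members (12.2%, against 10.5% of all such rows), while Control and SLEAR shRNA-1 were at 0 in 1 member each and SLEAR shRNA-2 in 0. The 13 rows of T lymphocyte markers summed to 3994 to 4487 RPM. The lowest value of CD3D, CD3E, CD247 and LCK was 454 RPM (CD3E in SLEAR shRNA-3), and these are the most abundant of the list. CD3G was at 0.238 RPM in Control and 0 elsewhere, the 3 rows of PTPRC (CD45) had means of 0.686 to 2.54 RPM with 2 of them at 0 in SLEAR shRNA-3, and CD7 was at 2.86 RPM (Control) and 8.51, 8.9 and 16.2 RPM (SLEAR shRNA). Markers of B cells summed to 12 to 23.1 RPM, nearly all from CD79A. Those of myeloid, erythroid, epithelial and fibroblast cells, each type summed apart, came to at most 3.19 RPM in any library. No row carried the name SLEAR, so the hairpins' target is not analysed here.

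**Figure D1:**
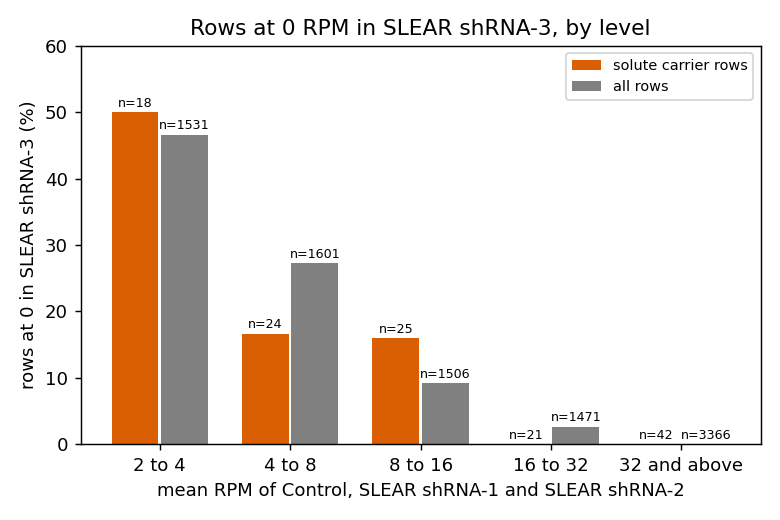
Share of rows at 0 RPM in SLEAR shRNA-3 (y axis, percent) among rows grouped by their mean RPM in the other 3 libraries (x axis), for the solute carrier rows (orange) and all rows (grey), with the number of rows over each bar. The grey rows had no minimum mean over all libraries, unlike the solute carrier rows. Among carriers at 2 to 4 RPM in the other libraries 9 of 18 were at 0, and at 16 RPM and above 0 of 63 were.

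Such zeros sat among weakly expressed carriers. By the mean of the other 3 libraries, 9 of 18 members at 2 to 4 RPM were at 0 in SLEAR shRNA-3, 4 of 24 at 4 to 8 RPM, 4 of 25 at 8 to 16 RPM and none of 63 above that. Over all rows the shares were 46.6%, 27.2% and 9.23% in the first 3 of these ranges. Those rows had no minimum mean over the 4 libraries, while members needed 2 RPM, so the shares are of unlike sets. Zeros in SLEAR shRNA-3 were thus frequent at these levels in the whole table.

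The promoters of SLC7A5, SLC25A11 and SLC30A3 are shown as examples. SLC7A5 was the second most abundant row, and SLC25A11 and SLC30A3 had the largest log2 rise and the largest log2 fall among the members that passed the test described below without SLEAR shRNA-3. The 250 bases before the RefSeq transcript start (GRCh38.p14, gene strand, 5′ to 3′) are given, with letters in capitals where a motif matched. RefSeq holds 1 start for SLC7A5 and SLC25A11 and 2 for SLC30A3, of which 1 is shown. The capitals are the MYC E-box CACGTG in SLC7A5 (chr16:87869508-87869757, minus strand), the ATF4 response element TGATGNAA and the metal response element core, TGCACNC or TGCGCNC, in SLC25A11 (chr17:4940047-4940296, minus strand), and the metal core alone in SLC30A3 (chr2:27275347-27275596, minus strand). A match on the other strand shows as its reverse complement.
SLC7A5: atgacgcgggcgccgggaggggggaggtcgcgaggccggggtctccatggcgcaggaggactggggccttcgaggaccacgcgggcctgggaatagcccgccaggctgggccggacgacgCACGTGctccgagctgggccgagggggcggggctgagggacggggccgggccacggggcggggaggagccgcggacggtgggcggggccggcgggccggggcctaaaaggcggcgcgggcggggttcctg
SLC25A11: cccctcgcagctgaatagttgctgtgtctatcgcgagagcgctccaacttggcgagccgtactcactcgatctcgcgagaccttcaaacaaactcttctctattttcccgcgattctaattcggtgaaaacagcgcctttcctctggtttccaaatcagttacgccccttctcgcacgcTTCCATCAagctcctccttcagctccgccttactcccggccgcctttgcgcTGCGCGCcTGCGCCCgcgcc
SLC30A3: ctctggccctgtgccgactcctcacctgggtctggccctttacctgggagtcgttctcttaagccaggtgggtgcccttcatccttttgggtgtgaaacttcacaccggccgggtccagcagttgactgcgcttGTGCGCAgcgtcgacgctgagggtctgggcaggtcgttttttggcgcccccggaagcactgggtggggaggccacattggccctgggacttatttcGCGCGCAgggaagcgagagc

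The motifs were searched on both strands in the whole 300 bases from 250 before to 50 after each start, and overlapping matches of a motif were allowed. Windows were found for 105 of the 134 symbols, and for carriers proper there were 149 windows. The E-box was in 23 of these (15.4%), against 7.26% of all 35114 RefSeq windows. For the ATF4 element it was 10 of 149 (6.71%) against 3.62%, with 5 of 25 windows of amino acid carriers, among them SLC3A2, SLC7A1 and SLC38A1. The metal core TGCGCNC can overlap the NRF1 core. The metal core was common everywhere, in 51 of 149 (34.2%) against 29.5%, and in 9 of 22 windows of zinc carriers (40.9%). The core of the NRF1 site, GCATGCGC, was in 4 of 149 (2.68%) against 3.05%, and in 0 of 31 windows of the SLC25 family. The 35114 windows were not limited to genes expressed in these cells, while the members were, so these shares are of unlike sets. Overlapping windows of the same gene, as for SLC4A2, were counted separately. A match is a run of letters and no evidence of binding.

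**Figure D2:**
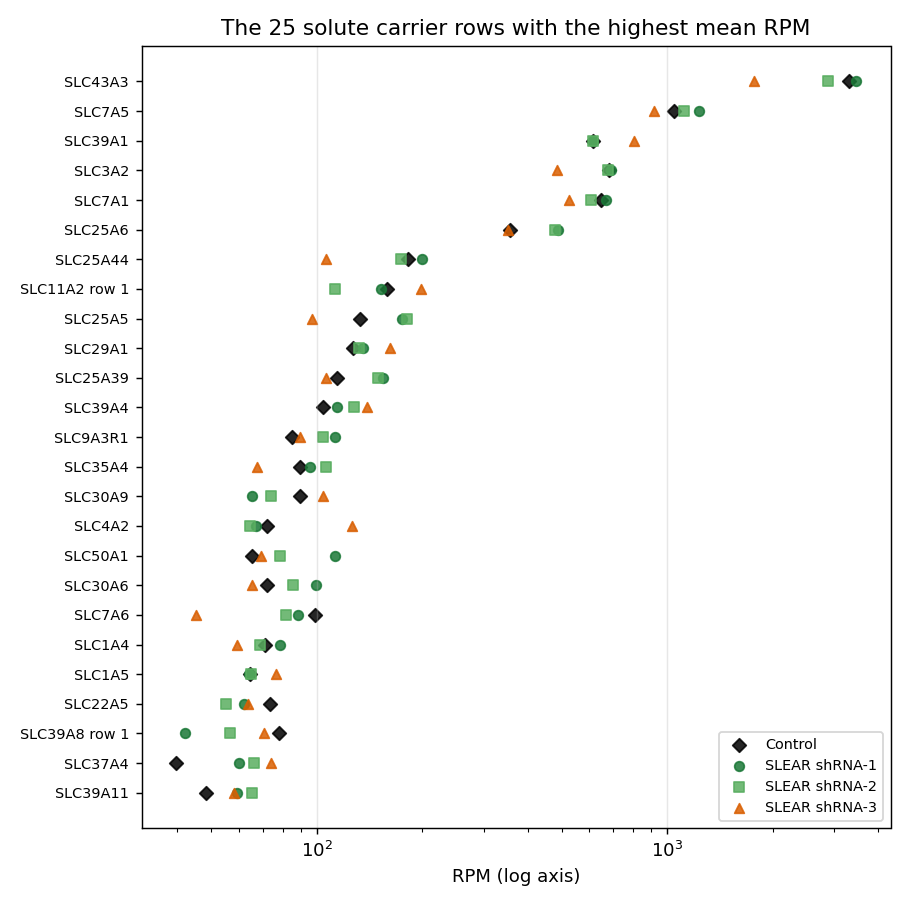
RPM (x axis, log scale) of the 25 solute carrier rows with the highest mean, one line per row, with Control as a black diamond and the 3 SLEAR shRNA libraries as a dark green circle, a light green square and an orange triangle. SLC43A3 stands apart at 1776 to 3472 RPM, and the orange triangle is often away from the other symbols.

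The row with the most reads was SLC43A3, an equilibrative carrier of purine nucleobases such as adenine and hypoxanthine, at 3296 RPM (Control) and 3472, 2880.2 and 1776 RPM (SLEAR shRNA). Control and SLEAR shRNA-1 and -2 lay close together there, and SLEAR shRNA-3 was the lowest. SLC43A3 made up 32.9% of all carrier RPM in Control, and under SLEAR shRNA 32.8%, 29.7% and 21.6%. After it came SLC7A5, SLC39A1, SLC3A2 and SLC7A1, and these 5 rows held 54.7% to 63.1% of carrier RPM. The order among SLC39A1, SLC3A2 and SLC7A1 was not the same in every library. Of the 139, 12 members had a mean of at least 100 RPM, 69 lay between 10 and 100 RPM and 58 below 10 RPM.

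Just inside the mean of 2 RPM were SLC22A17 with a mean of 2.14 RPM, SLC5A11 with 2.05 RPM and SLC25A3 with 2.19 RPM. Just outside were SLC27A4 with 1.98 RPM, SLC23A3 with 1.95 RPM and SLC35A1 with 1.9 RPM.

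Which carriers differ when SLEAR is targeted was asked by setting SLEAR shRNA against Control. All 139 members passed the filter of at least 1 RPM in at least 1 library, as the rule's mean of 2 RPM guarantees. By limma-trend on log2(RPM + 1) over 12350 rows, no member passed the threshold of 0.05 in either direction (0 of 139, lowest adjusted p = 0.993), and 0% of all rows did. At an unadjusted p under 0.05 there was 1 member higher, SLC37A4, and 0 lower, where the 9516 rows with a mean of at least 2 RPM had 0.967% higher and 0.872% lower, and all 12350 rows 0.745% and 1.94%. Limma-voom on estimated reads also called 0.

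In direction the carriers were close to the table as a whole. All 3 SLEAR shRNA libraries lay above Control in 30 members (21.6%), against 21.4% of the 9516 rows with a mean of at least 2 RPM, and below it in 37 (26.6%), against 26.9%. After median centring the split was 36 above and 30 below. In SLEAR shRNA-1 and -2 alone, 50 of 139 members lay above, where 36.3% of all rows did, and 61 of 139 (43.9%) below, where 41.7% did. The members' median log2 difference from Control was -0.01, -0.05 and -0.10 in the 3 libraries, beside -0.02, -0.04 and -0.09 over those rows. Of the 37 members below Control, 9 were at 0 in SLEAR shRNA-3.

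**Figure D3:**
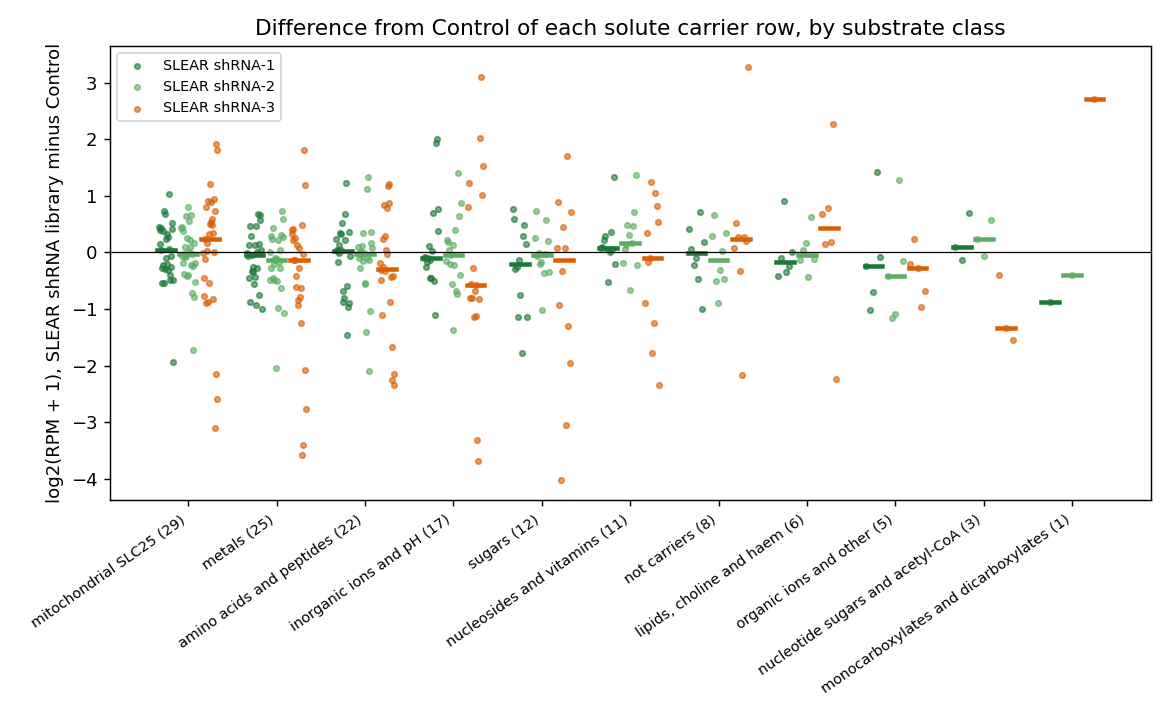
Difference of log2(RPM + 1) between each SLEAR shRNA library and Control (y axis) for every solute carrier row, grouped by substrate class (x axis, number of rows in brackets), with 1 colour per library and a short bar at each median. The medians of SLEAR shRNA-1 and -2 lie near 0 in the larger classes, and the orange points of SLEAR shRNA-3 spread the widest.

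A second fit left out SLEAR shRNA-3 and kept rows whose log2(RPM + 1) averaged 4 or more over all 4 libraries. It called 4 of 68 members higher (5.88%) where 7.11% of 4851 rows were called, and 3 lower (4.41%) where 7.26% were. Both shares lie under the background. Limma-voom called the same 7, where 6.68% and 8.23% of all rows were called, and array weights on all 4 libraries called 3 and 2, where 5.24% and 5.5% were. Below, a range of adjusted p over the alternatives covers 14 other settings of the first fit, the second fit included. Limma-voom without SLEAR shRNA-3 is not among these settings. The 7 members are described with their classes: SLC25A6, SLC25A11, SLC37A4 and SLC50A1 on the higher side, SLC39A8, SLC30A3 and SLC30A7 on the lower. The fit rests on 2 SLEAR shRNA libraries and 1 residual degree of freedom per row, with the spread wholly pooled over rows, so that disagreement between those 2 libraries in a row does not count. Without the minimum of 4, the same 3 libraries gave 0 members in either direction, and the lowest adjusted p over all 12350 rows was 0.368. With SLEAR shRNA-1 or -2 left out in place of -3, it also gave 0 and 0.

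**Figure D4:**
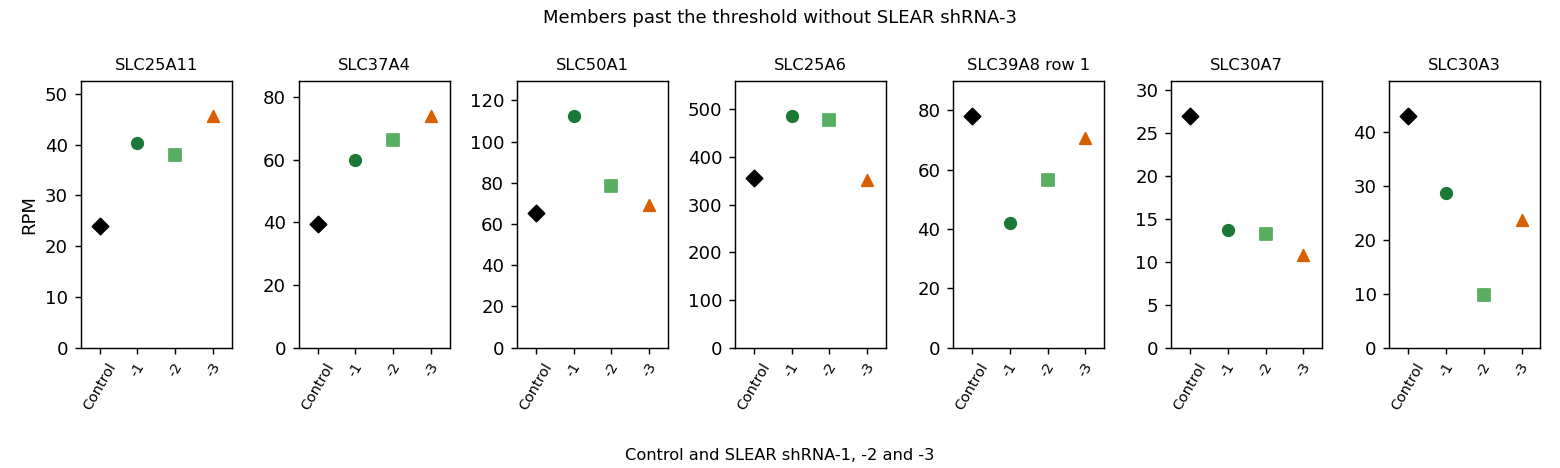
RPM (y axis, each panel from 0) of the 7 members that passed the test without SLEAR shRNA-3, in Control (black diamond) and the 3 SLEAR shRNA libraries, 1 point per library. SLC25A11 and SLC37A4 are higher than Control in all 3, SLC30A7 and SLC30A3 lower in all 3, and SLC25A6 in SLEAR shRNA-3 lies near the Control value.

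Carriers of sugars and sugar phosphates made up 12 members, of which 2 were above and 4 below Control in all 3 SLEAR shRNA libraries, and 3 were at 0 in SLEAR shRNA-3. SLC37A4, which takes glucose-6-phosphate into the endoplasmic reticulum, was at 39.6 RPM (Control) and 60.0, 66.2 and 73.9 RPM (SLEAR shRNA). Every SLEAR shRNA library exceeded Control. The mean was 66.7 ± 6.98 RPM (SD, n = 3), and the log2 difference 0.73 ± 0.25 (SE) had the smallest unadjusted p of all members, 0.0369, without passing. In the fit without SLEAR shRNA-3 it rose by 0.66 ± 0.20 (SE, adjusted p = 0.0146); the adjusted p over the alternatives ran from 0.0146 to 1. SLC50A1, the only human member of the SWEET sugar carriers, was at 65.5 RPM (Control) and 113, 78.4 and 69.2 RPM (SLEAR shRNA). SLEAR shRNA-1 was far above the rest and SLEAR shRNA-3 close to Control. It passed without SLEAR shRNA-3 at 0.51 ± 0.18 (SE, adjusted p = 0.0399), with adjusted p values from 0.0399 to 1 over the alternatives, and without SLEAR shRNA-1 in its place the difference was 0.17. SLC2A3, the glucose carrier GLUT3, was at 7.28 RPM (Control) and 1.42, 5.45 and 0 RPM (SLEAR shRNA), and SLC2A11, a fructose and glucose carrier, at 12.5 RPM (Control) and 5.11, 10.8 and 9.76 RPM (SLEAR shRNA). SLC37A1, a relative of SLC37A4, was at 14.4 RPM (Control) and 11.6, 13.8 and 7.06 RPM (SLEAR shRNA), and SLC37A3 was at 15.1 RPM (Control) and 12.5, 15 and 0 RPM (SLEAR shRNA). These relatives lay below Control in all 3 libraries, SLC37A3 by very little in SLEAR shRNA-2.

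Carriers of amino acids and peptides had 22 members, of which 3 were above and 5 below Control in all 3 SLEAR shRNA libraries. Vesicular carriers were put in this class, and among those above was SLC17A9, whose substrates are nucleotides. None of the 22 passed the first fit and none of the 12 that were in the second fit passed that. SLC7A5, the light chain of the leucine carrier LAT1, was at 1044 RPM (Control) and 1232, 1115 and 916 RPM (SLEAR shRNA), and SLC3A2, the heavy chain that brings it to the cell surface, at 681 RPM (Control) and 690.1, 676 and 486 RPM (SLEAR shRNA). SLEAR shRNA-3 was the lowest library in both and the only one far under Control in SLC3A2, with log2 differences of 0.05 ± 0.25 (SE) and -0.16 ± 0.28 (SE). SLC7A1, the arginine and lysine carrier CAT-1, was at 647 RPM (Control) and 669, 605 and 523 RPM (SLEAR shRNA). Of the other light chains that pair with SLC3A2, SLC7A6, a carrier of cationic and neutral amino acids, was at 98.9 RPM (Control) and 88.2, 81.9 and 45.3 RPM (SLEAR shRNA), and SLC7A11, the cystine importer xCT, at 18 RPM (Control) and 10.8, 11.8 and 31.6 RPM (SLEAR shRNA). SLC7A6 lay below Control in all 3 libraries. For SLC7A11 Control lay between SLEAR shRNA-1 and -2 below and SLEAR shRNA-3 above. SLC1A5, the glutamine carrier ASCT2, was nearly level at 64.6 RPM (Control) and 64, 64.7 and 76.6 RPM (SLEAR shRNA), and its relative SLC1A4 was at 71.2 RPM (Control) and 78.5, 68.8 and 59 RPM (SLEAR shRNA).

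Among the sodium-coupled SLC38 carriers of glutamine and alanine, SLC38A2 was at 44.6 RPM (Control) and 56.7, 48.2 and 80.0 RPM (SLEAR shRNA) and SLC38A5 at 7.04 RPM (Control) and 11.9, 16.5 and 17.7 RPM (SLEAR shRNA), both above Control in all 3 libraries (log2 differences 0.43 ± 0.36 (SE) and 1.01 ± 0.51 (SE)). SLC38A1 went the other way, at 26.2 RPM (Control) and 13.8, 17.7 and 25.7 RPM (SLEAR shRNA), with SLEAR shRNA-3 only just under Control. SLC38A9, the lysosomal carrier that reports arginine to mTORC1, was at 7.99 RPM (Control) and 4.97, 7.18 and 5.61 RPM (SLEAR shRNA), and the lysosomal proton-coupled carrier SLC36A1 at 8.71 RPM (Control) and 3.97, 3.72 and 1.04 RPM (SLEAR shRNA). SLC32A1, which loads GABA and glycine into synaptic vesicles, was at 13.5 RPM (Control) and 4.26, 2.39 and 3.53 RPM (SLEAR shRNA). All 3 SLEAR shRNA values were far under Control there, and its log2 difference -1.74 ± 0.72 (SE) had an unadjusted p of 0.0657. SLC17A9, a vesicular nucleotide carrier, was at 24.3 RPM (Control) and 30.6, 31.1 and 30.1 RPM (SLEAR shRNA). SLC38A10 and SLC38A6 each had 2 rows, and the rows of SLC38A10 differed in direction in SLEAR shRNA-2 and -3: the higher was at 18.8 RPM (Control) and 27.5, 18.6 and 19.5 RPM (SLEAR shRNA) and the lower at 6.2 RPM (Control) and 15.9, 17 and 2.91 RPM (SLEAR shRNA). For SLC38A6 the rows were at 3.05 RPM (Control) and 4.19, 3.53 and 2.04 RPM (SLEAR shRNA) and at 3.46 RPM (Control) and 3.26, 3.72 and 0 RPM (SLEAR shRNA), both near the low end of the members. The class held few shifts that were alike in all 3 SLEAR shRNA libraries.

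Nucleosides, nucleobases and vitamins were carried by 11 members, of which 5 were above and 2 below Control in all 3 libraries. The 4 equilibrative nucleoside carriers of the SLC29 family all lay above Control in all 3, where 21.4% of all rows with a mean of at least 2 RPM did. For these 4 the same held after median-of-ratios scaling and median centring. SLC29A1 (ENT1), the main one of the plasma membrane, was at 127 RPM (Control) and 135, 132 and 162 RPM (SLEAR shRNA), and SLC29A2 (ENT2) at 19.6 RPM (Control) and 20.4, 24.3 and 47.6 RPM (SLEAR shRNA). SLC29A3, the lysosomal member, was at 7.28 RPM (Control) and 9.65, 10.4 and 16.2 RPM (SLEAR shRNA), and SLC29A4, a carrier of monoamines and adenosine, at 3.1 RPM (Control) and 3.26, 5.71 and 6.23 RPM (SLEAR shRNA). SLC29A1 in SLEAR shRNA-1 and -2, and SLC29A2 and SLC29A4 in SLEAR shRNA-1, exceeded the single Control library by at most 0.10 in log2. In each of the 4, SLEAR shRNA-3 was the highest, and the largest log2 difference was 0.63 ± 0.58 (SE) for SLC29A3. None passed the first fit, nor did SLC29A1 and SLC29A2 in the second, which did not hold SLC29A3 and SLC29A4. SLC43A3, of the same substrate group, had a log2 difference of -0.34 ± 0.45 (SE), with SLEAR shRNA-1 on the other side of Control.

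Of the vitamin carriers, SLC23A2, which imports ascorbate, was at 37.4 RPM (Control) and 25.7, 23.3 and 10.2 RPM (SLEAR shRNA), under Control in all 3 libraries (log2 difference -0.99 ± 0.63 (SE)). SLC19A1, the reduced folate carrier through which methotrexate enters cells, was at 27.5 RPM (Control) and 33.9, 38.7 and 25.5 RPM (SLEAR shRNA). SLC46A3, a lysosomal protein of a folate carrier family, was at 34.9 RPM (Control) and 41, 38.1 and 31 RPM (SLEAR shRNA). SLC52A2, a riboflavin carrier, was at 1.55 RPM (Control) and 5.39, 5.58 and 2.7 RPM (SLEAR shRNA) and SLC19A2, a thiamine carrier, at 4.05 RPM (Control) and 3.4, 3.32 and 0 RPM (SLEAR shRNA). SLC52A2 was above Control and SLC19A2 below it in all 3 libraries, both at low levels.

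**Figure D5:**
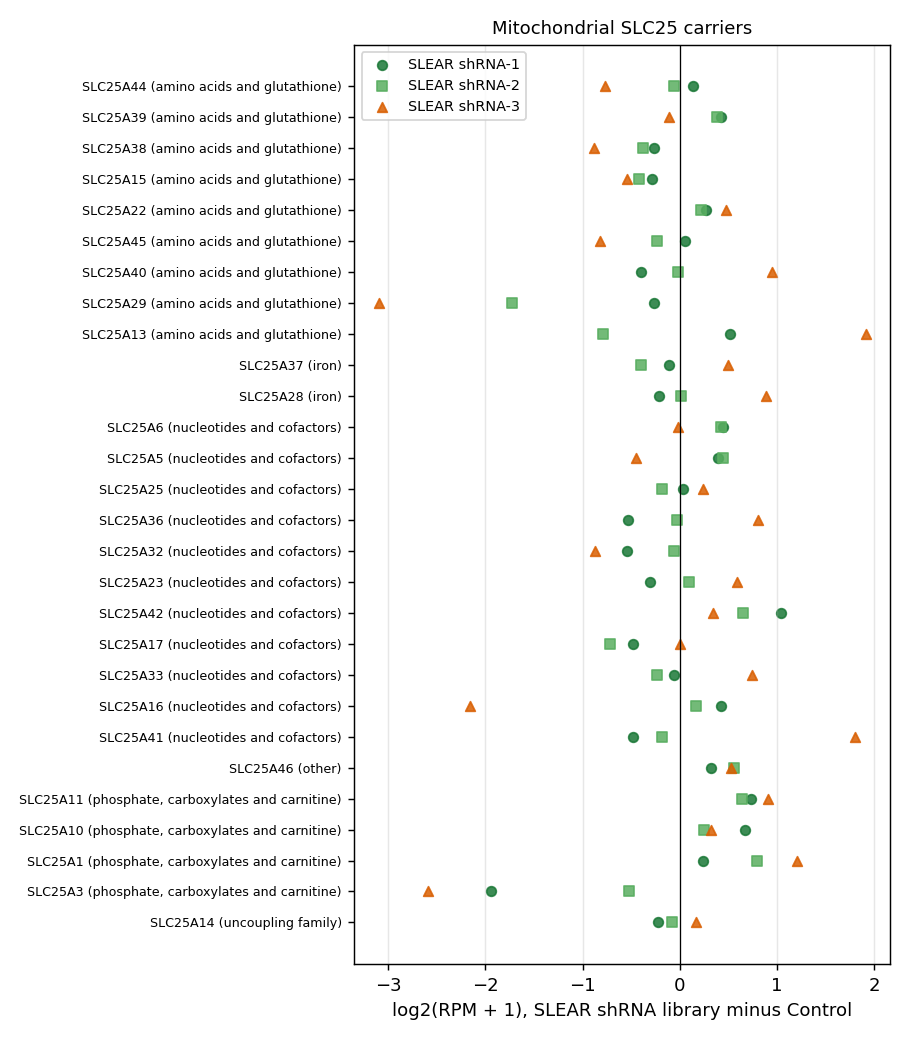
Difference of log2(RPM + 1) between each SLEAR shRNA library and Control (x axis) for all but 1 of the 29 mitochondrial SLC25 rows (y axis), grouped by substrate; symbols are the 3 libraries. SLC25A11, SLC25A10 and SLC25A1 lie right of 0 in all 3, and for SLC25A6 and SLC25A5 the triangle of SLEAR shRNA-3 is apart from the other symbols.

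The mitochondrial SLC25 family, taken by gene symbol and kept apart here, had 29 members. Of these, 7 were above and 5 below Control in all 3 SLEAR shRNA libraries, and 18 were in the second fit. That fit called 2 higher (11.1%, where 7.11% of all rows were) and 0 lower. After median-of-ratios scaling 6 were above and 6 below, and after median centring 8 and 4. Its median log2 differences were 0.03, -0.02 and 0.24, where the 102 carriers outside it had -0.03, -0.05 and -0.27. The sums of its RPM were 1317 in Control and 1534, 1499 and 1260.2. The medians of the groups were close in SLEAR shRNA-1 and -2 and apart in SLEAR shRNA-3. Rows of the family under other symbols were listed apart and are not in these counts. Of those, UCP2, MTCH1 and MTCH2 had means of at least 2 RPM, and each lay below Control in all 3 libraries.

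Of the 4 rows for phosphate and carboxylates, 3 were above Control in all 3 libraries and 1 below. SLC25A11, which exchanges oxoglutarate for malate in the malate-aspartate shuttle, was at 24 RPM (Control) and 40.4, 37.9 and 45.7 RPM (SLEAR shRNA), a mean of 41.3 ± 3.99 RPM (SD, n = 3) and a log2 difference of 0.76 ± 0.28 (SE). All 3 SLEAR shRNA values lay well above Control. SLC25A11 rose by 0.68 ± 0.23 (SE, adjusted p = 0.0301) without SLEAR shRNA-3, and its adjusted p ran from 0.0301 to 1 over the alternatives. SLC25A10, the dicarboxylate carrier, was at 21.5 RPM (Control) and 34.8, 25.7 and 27 RPM (SLEAR shRNA), and SLC25A1, which exports citrate for lipid synthesis, at 13.4 RPM (Control) and 15.9, 23.9 and 32 RPM (SLEAR shRNA). Both were above Control in all 3 libraries without passing. SLC25A3, the phosphate carrier, was at 5.01 RPM (Control) and 0.568, 3.19 and 0 RPM (SLEAR shRNA), close to the lower edge of the members. SLC25A13, the aspartate-glutamate carrier citrin, which works in the same shuttle as SLC25A11, was at 1.19 RPM (Control) and 2.13, 0.266 and 7.27 RPM (SLEAR shRNA).

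SLC25A6 (ANT3), an ADP/ATP carrier, had the highest mean among rows with an SLC25 symbol. It was at 357 RPM (Control) and 487, 479 and 353 RPM (SLEAR shRNA). SLC25A5 (ANT2), another ADP/ATP carrier, was at 133 RPM (Control) and 175, 181 and 97 RPM (SLEAR shRNA). In both, SLEAR shRNA-1 and -2 lay close together above Control, while SLEAR shRNA-3 was at or under it. Without SLEAR shRNA-3, SLC25A6 passed at 0.43 ± 0.14 (SE, adjusted p = 0.0167), with adjusted p values from 0.0167 to 1 over the alternatives and a difference of 0.20 or 0.21 where SLEAR shRNA-1 or -2 was left out in its place. SLC25A5 did not pass, at 0.42 ± 0.16 (SE, adjusted p = 0.0597). Both genes have near-identical copies and pseudogenes that can share their reads, and their values are uncertain. SLC25A42, a coenzyme A carrier, lay above Control in all 3 libraries, at 4.53 RPM (Control) and 10.4, 7.71 and 6.02 RPM (SLEAR shRNA).

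Among amino acid and glutathione carriers of the family, SLC25A44, for branched-chain amino acids, was at 182 RPM (Control) and 200.3, 174 and 106 RPM (SLEAR shRNA). SLC25A39, needed for mitochondrial glutathione import, was at 114 RPM (Control) and 154, 149.5 and 106 RPM (SLEAR shRNA). SLC25A38, which brings in glycine for haem synthesis, was at 68.8 RPM (Control) and 56.9, 52.6 and 36.8 RPM (SLEAR shRNA), and SLC25A15, the ornithine carrier, at 37.3 RPM (Control) and 30.4, 27.6 and 25.3 RPM (SLEAR shRNA). SLC25A38 and SLC25A15 were below Control in all 3 libraries, with SLEAR shRNA-3 the lowest. SLC25A46, an outer membrane protein of mitochondrial dynamics, was above it in all 3, at 12.6 RPM (Control) and 16, 19 and 18.7 RPM (SLEAR shRNA). The iron importers SLC25A37 and SLC25A28, mitoferrin 1 and 2, were at 17.7 RPM (Control) and 16.3, 13.2 and 25.3 RPM (SLEAR shRNA) and at 14 RPM (Control) and 11.9, 14.1 and 26.6 RPM (SLEAR shRNA). In both, SLEAR shRNA-3 was the highest library. SLC25A25, a carrier of ATP-magnesium and phosphate with the highest mean of the members not otherwise named, was at 55.8 RPM (Control) and 57.2, 49 and 66.1 RPM (SLEAR shRNA).

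Metal carriers had 25 members, of which 5 were above and 9 below Control in all 3 libraries; 16 were in the second fit, which called 3 lower (18.8%, where 7.26% of all rows were) and 0 higher. Zinc carriers come in opposed families: SLC39 (ZIP) proteins bring zinc into the cytosol and SLC30 (ZnT) proteins take it out, to organelles or the outside. Of 5 SLC30 rows, 3 were below Control in all 3 libraries and 4 in SLEAR shRNA-1 and -2, and of 14 SLC39 rows 4 were above and 6 below in all 3. Of all rows with a mean of at least 2 RPM, 21.4% lay above and 26.9% below in all 3, and 41.7% below in SLEAR shRNA-1 and -2. The SLC30 counts were alike after both other scalings, while SLC39 turned to 6 above and 5 below after median centring. SLC30A3 (ZnT3), known for loading zinc into synaptic vesicles, was at 43.1 RPM (Control) and 28.8, 9.7 and 23.7 RPM (SLEAR shRNA). All 3 were lower than Control, with SLEAR shRNA-2 far under the other two. SLC30A7 (ZnT7), of the Golgi, was at 27 RPM (Control) and 13.6, 13.2 and 10.8 RPM (SLEAR shRNA), with 3 values close together, and SLC30A5 (ZnT5), also of the secretory pathway, at 9.54 RPM (Control) and 5.25, 5.85 and 0 RPM (SLEAR shRNA). Without SLEAR shRNA-3 SLC30A3 fell by 1.30 ± 0.27 (SE, adjusted p = 0.00011) and SLC30A7 by 0.96 ± 0.31 (SE, adjusted p = 0.0213); with SLEAR shRNA-2 left out in place of -3, SLC30A3 differed by -0.70 without passing. Over the alternatives their adjusted p ran from 0.00011 to 1 and from 0.0213 to 1. For SLC30A3 the SE of 0.27 is pooled over rows and takes no account of the gap between SLEAR shRNA-1 and -2. Without the minimum mean log2 value of 4, the same libraries gave SLC30A3 an SE of 0.74. SLC30A6 was at 72 RPM (Control) and 99.7, 85.5 and 65.4 RPM (SLEAR shRNA) and SLC30A9 at 89.6 RPM (Control) and 65.4, 74 and 104 RPM (SLEAR shRNA), with no common direction.

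On the importing side, SLC39A1 (ZIP1) was the most abundant, at 616 RPM (Control) and 613, 616 and 807 RPM (SLEAR shRNA). Control and SLEAR shRNA-1 and -2 were all but equal there. SLC39A8 (ZIP8), which also carries manganese, had 2 rows, the higher at 78.1 RPM (Control) and 42.1, 56.6 and 70.6 RPM (SLEAR shRNA) and the lower at 5.84 RPM (Control) and 2.41, 2.26 and 0 RPM (SLEAR shRNA), both below Control in all 3 libraries. Its higher row fell by 0.67 ± 0.20 (SE, adjusted p = 0.0117) without SLEAR shRNA-3 and differed by -0.30 without SLEAR shRNA-1 in its place, with adjusted p values from 0.0117 to 1 over the alternatives. SLC39A9 was at 49.5 RPM (Control) and 39.2, 35 and 32 RPM (SLEAR shRNA), SLC39A7, the endoplasmic reticulum importer, at 46.5 RPM (Control) and 45, 40.1 and 34.7 RPM (SLEAR shRNA), and SLC39A6 at 38.9 RPM (Control) and 32.2, 36.1 and 19.9 RPM (SLEAR shRNA), all under Control throughout. Going the other way were SLC39A4, the intestinal zinc importer, at 104 RPM (Control) and 114, 128 and 139 RPM (SLEAR shRNA), and SLC39A11 at 48.4 RPM (Control) and 59.2, 65.5 and 58 RPM (SLEAR shRNA). The 2 rows of SLC39A3 were at 16.9 RPM (Control) and 23.8, 19.9 and 9.35 RPM (SLEAR shRNA) and at 4.77 RPM (Control) and 8.23, 4.92 and 7.06 RPM (SLEAR shRNA). The iron importer SLC11A2 (DMT1) had a higher row at 159 RPM (Control) and 152, 113 and 199 RPM (SLEAR shRNA) and a lower one at 9.17 RPM (Control) and 9.2, 8 and 5.58 RPM (SLEAR shRNA). Neither row had a common direction.

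Inorganic ions and pH were served by 17 members, of which 3 were above and 5 below Control in all 3 libraries, and none of the 6 in the second fit passed. SLC4A2, the chloride-bicarbonate exchanger AE2, was at 71.9 RPM (Control) and 67.2, 64.6 and 126 RPM (SLEAR shRNA), and SLC12A7, the potassium-chloride carrier KCC4, at 27.2 RPM (Control) and 25.7, 31.9 and 65 RPM (SLEAR shRNA). In both, SLEAR shRNA-3 was far above the other 3 libraries. SLC12A9 was at 34.8 RPM (Control) and 28.9, 39.5 and 19.5 RPM (SLEAR shRNA). SLC12A2, the sodium-potassium-chloride carrier NKCC1, was below Control in all 3, at 19.2 RPM (Control) and 17.5, 12.6 and 8.1 RPM (SLEAR shRNA). SLC9A5, a sodium-proton exchanger, was above Control in all 3, at 0.835 RPM (Control) and 5.96, 3.85 and 6.44 RPM (SLEAR shRNA). SLC20A1, a phosphate importer, was at 10.4 RPM (Control) and 4.26, 5.85 and 5.4 RPM (SLEAR shRNA), and SLC12A5 (KCC2), known from neurons, at 0.238 RPM (Control) and 3.97, 0.93 and 9.56 RPM (SLEAR shRNA). For SLC12A5 the Control value stood for about 2 reads and lay under the 0.358 RPM that a 0 there allows.

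Lipid and choline carriers had 6 members, 1 above and 1 below Control in all 3 libraries. SLC27A2, which imports and activates very long-chain fatty acids, was at 50.8 RPM (Control) and 37.9, 46 and 82 RPM (SLEAR shRNA), the highest of the class, and SLC10A3 nearly level at 19.3 RPM (Control) and 18, 19.8 and 21.6 RPM (SLEAR shRNA). SLC44A2, a choline carrier-like protein, was at 4.05 RPM (Control) and 8.51, 4.65 and 7.69 RPM (SLEAR shRNA). The other SLC27 fatty acid carriers were low: SLC27A5 was at 5.72 RPM (Control) and 4.26, 3.99 and 6.65 RPM (SLEAR shRNA), SLC27A1 at 1.19 RPM (Control) and 0.851, 2.39 and 9.56 RPM (SLEAR shRNA) and SLC27A3 at 3.7 RPM (Control) and 3.69, 3.32 and 0 RPM (SLEAR shRNA).

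Organic ions, urea and drugs had 5 members, 0 above and 3 below Control in all 3 libraries. SLC22A5 (OCTN2), the carnitine importer, was at 73.3 RPM (Control) and 61.9, 54.9 and 63.6 RPM (SLEAR shRNA), below Control throughout, with a log2 difference of -0.29 ± 0.23 (SE). SLC22A23 was at 10.1 RPM (Control) and 4.47, 3.99 and 12 RPM (SLEAR shRNA) and SLC14A1, the urea carrier, at 5.96 RPM (Control) and 3.26, 2.26 and 4.78 RPM (SLEAR shRNA). SLC22A18 and SLC22A17 were low, at 0.954 RPM (Control) and 4.26, 3.72 and 0 RPM (SLEAR shRNA) and at 2.62 RPM (Control) and 2.41, 2.26 and 1.25 RPM (SLEAR shRNA). For the Golgi and endoplasmic reticulum, SLC35A4, a relative of the nucleotide sugar carriers, was at 89.6 RPM (Control) and 95.8, 106 and 67.3 RPM (SLEAR shRNA), SLC35A2, for UDP-galactose, at 5.72 RPM (Control) and 5.11, 5.45 and 1.66 RPM (SLEAR shRNA), and SLC33A1, for acetyl-CoA, at 1.91 RPM (Control) and 3.69, 3.32 and 0 RPM (SLEAR shRNA). Only SLC13A4, a sodium-coupled sulphate carrier, came from the families of mono- and dicarboxylate carriers, at 0.835 RPM (Control) and 0, 0.399 and 11 RPM (SLEAR shRNA). It was a member through SLEAR shRNA-3 alone.

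The 8 rows that are no carriers included SLC9A3R1, the scaffold NHERF1, at 84.9 RPM (Control) and 113, 104 and 89.3 RPM (SLEAR shRNA), and SLC4A1AP at 30.3 RPM (Control) and 31.8, 48.5 and 44 RPM (SLEAR shRNA). SLC2A4RG, a transcription factor, was at 16 RPM (Control) and 14.9, 8.11 and 12.5 RPM (SLEAR shRNA). SLC25A25-AS1, antisense to a nucleotide carrier, was at 16.8 RPM (Control) and 14.2, 11.6 and 20.6 RPM (SLEAR shRNA), and SLC7A6OS, on the opposite strand of SLC7A6, at 13.7 RPM (Control) and 9.65, 10.9 and 2.28 RPM (SLEAR shRNA). Strand use in the counting is not stated, so reads of these rows and of the carriers they overlap may not be separable. SLC7A6OS and SLC7A6 were both below Control in all 3 libraries.

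Genes that carriers depend on were listed apart. Of 108 such rows with at least 1 RPM in 1 library, 0 passed the first fit (0% of all rows did), and of the 53 that were in the second fit 1 passed as higher and 4 as lower, where 7.11% and 7.26% of all rows did. For the direction counts of these lists, 21.4% of rows with a mean of at least 2 RPM lay above Control in all 3 libraries and 26.9% below. The lists also hold rows under that mean. Of the Na,K-ATPase, which keeps up the sodium gradient, 4 rows were measured, with 0 above and 0 below Control in all 3 libraries. Of 18 rows of the V-ATPase, which acidifies lysosomes, 5 were above (27.8%) and 4 below (22.2%). ATP6AP2, an accessory subunit, was at 149.9 RPM (Control) and 96, 101 and 91.8 RPM (SLEAR shRNA), and it fell by 0.60 ± 0.17 (SE, adjusted p = 0.00798) without SLEAR shRNA-3. ARL6IP1, a shaper of the endoplasmic reticulum that was listed with the carriers' helper proteins, was at 312 RPM (Control) and 162, 177 and 134 RPM (SLEAR shRNA), and fell by 0.88 ± 0.15 (SE, adjusted p = 2.23e-06) in that fit. BSG, the chaperone of lactate carriers, was at 63.2 RPM (Control) and 44.4, 48 and 78.3 RPM (SLEAR shRNA).

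Of 14 rows of mitochondrial pores, import factors and the calcium uniporter, 6 were above (42.9%) and 2 below (14.3%) Control in all 3 libraries. MICU2, a gatekeeper of the uniporter, was at 76.3 RPM (Control) and 46, 48.1 and 67.3 RPM (SLEAR shRNA) and fell by 0.69 ± 0.20 (SE, adjusted p = 0.00966) without SLEAR shRNA-3; VDAC3, a pore of the outer membrane, was at 283 RPM (Control) and 286, 310.1 and 327 RPM (SLEAR shRNA). Of 42 rows of carriers whose symbol does not start with SLC and a number, 7 were above (16.7%) and 17 below (40.5%). A mean of at least 2 RPM was reached by 37 of these rows, and a lean of the list was not tested. NPC1, the lysosomal cholesterol exporter, was at 82.5 RPM (Control) and 52.9, 52.2 and 104 RPM (SLEAR shRNA) and fell by 0.64 ± 0.20 (SE, adjusted p = 0.0141) in the same fit, although SLEAR shRNA-3 was above Control. SV2A, a synaptic vesicle protein with a transporter fold, was at 25.9 RPM (Control) and 54.6, 40.9 and 35.5 RPM (SLEAR shRNA) and rose by 0.85 ± 0.22 (SE, adjusted p = 0.00337). Of 25 rows of regulators, 6 were above (24%) and 7 below (28%). ATF4, the transcription factor that induces amino acid carriers, was at 1135 RPM (Control) and 1455, 1350.2 and 1345 RPM (SLEAR shRNA). MTF1, the zinc sensor that binds the metal response element, was at 11.9 RPM (Control) and 13.5, 9.83 and 3.74 RPM (SLEAR shRNA), and TXNIP, which removes glucose carriers from the surface, at 18.4 RPM (Control) and 8.37, 9.57 and 2.91 RPM (SLEAR shRNA). None of these 3 passed the first fit; of them only ATF4 was in the second, where it did not pass (adjusted p = 0.0607).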

How the data were processed

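Values in RPM, reads relative to the size of the library, for 16328 rows were used as the authors deposited them; per the submitters' processing notes FastQC, Bowtie2, SAMtools and hg19 were used; nothing given here says how reads were assigned to rows. The columns summed to 85.3% to 89.5% of the total the unit implies. Rows alike in every library were merged where they averaged 1 RPM or more (177 removed). The size of 1 read, and from it the depth, was read off the spacing of low values, of which 96.4% to 96.9% were whole multiples within 0.05 reads, and 5 to 27 rows a library lay below 1 read, so no count test was used. Intervals and floors cover counting error only.

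SLEAR shRNA (n = 3) was compared with Control (n = 1) by limma-trend (limma 3.58.1, R 4.3.3) on log2(RPM + 1), which understates changes of low rows, over 12350 rows with at least 1 RPM in 1 library; p-values were adjusted by Benjamini-Hochberg and 0.05 was the threshold. The residual spread, with 2 degrees of freedom, came from SLEAR shRNA alone, and Control was assumed to vary like it. An exact permutation test could not go below 0.25. The second fit used Control with SLEAR shRNA-1 and -2.

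The members, classes, lists and the second fit were chosen with earlier results of these data known. Named are the 3 highest members of a class by mean, the 2 with the smallest p in each direction, members past the threshold in the second fit, those with several rows, classes of under 4 in full, and those at the rule's edge; other named genes were chosen after their values were seen. An accession of all 139 members was in the RefSeq table; promoters are from RefSeq (GRCh38.p14) and no hg19 coordinates are given. Some genes that fit these rules are not reported here.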

Additional observations from a re-analysis of the deposited data

How the results depend on the processing

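The count of 0 members past the threshold stayed at 0 under other size factors, median centring, pseudocounts of 0.1 and 5, no filter, a minimum mean log2 value of 4, limma-voom, array weights, summed rows and leaving out any 1 SLEAR shRNA library (0 to 0). It became 7 without SLEAR shRNA-3 together with the minimum of 4, and 5 with array weights and that minimum, an alternative chosen after the data were seen. For accessory and other transport genes the count went from 0 of 108 rows to 5 of the 53 left by that minimum under each of these 2. Members above Control in all SLEAR shRNA libraries went from 30 to 15 and those below from 37 to 14 under the minimum of 4, which leaves 68 members, and without 1 library they were 36 to 50 above and 42 to 61 below, since fewer values must agree. Median centring moved the split to 36 above and 30 below. Of the second fit's 4 higher and 3 lower members, 0 and 0 were left without the minimum, with no filter, with SLEAR shRNA-3 put back, or with SLEAR shRNA-1 or -2 left out in its place; other scalings gave up to 6 higher, limma-voom 4 and 3, and array weights 3 and 2. Among 70 named members, 50 of 873 values changed sign, in 19 members, none of them past the threshold; the cause was not tested. Depth limits members under 10 RPM, 58 of 139. No paired analysis was possible because Control had 1 library without a number.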
